A study of Mus musculus with 5 samples.

Results

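The genes of the mitochondrial respiratory chain were compared between their nuclear and mitochondrial members across the cell types of mouse dorsal root ganglia (DRG), the ganglia that hold the cell bodies of sensory neurons. Members were chosen by symbol. The nuclear group held the rows whose symbol begins with Nduf, Cox4 to Cox8, Uqcr or Atp5, or is Sdha, Sdhb, Sdhc or Sdhd, and the mitochondrial group held the genes for ND1 to ND6, ND4L, CYTB, COX1 to COX3, ATP6 and ATP8. This gave 104 of the 17271 rows of the count table, 91 nuclear and 13 mitochondrial. Lumbar DRG came from 5 adult, untreated wild type C57BL/6 mice of both sexes, and all belonged to 1 condition. Cells were freed by enzymatic dissociation and a Percoll gradient and captured with the Chromium 3′ assay, in which each captured RNA molecule receives its own unique molecular identifier (UMI). The deposited annotation placed the 3352 cells in 14 types. There were 12 types of neurons, in the neurofilament-containing (NF), non-peptidergic (NP), peptidergic (PEP) and Th classes, together with satellite glia, which wrap the neurons, and endothelial cells of the vessels. These types came from clustering of the same counts, so a test between them describes the size of a difference and is no independent evidence for the types. Each of the 5 libraries was taken as 1 animal and numbered by its identifier, since no label ties a library to a sample or a sex.

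The respiratory chain passes electrons from NADH and succinate to oxygen and pumps protons across the inner mitochondrial membrane, and ATP synthase uses the resulting gradient to make ATP. Complex I accepts electrons from NADH, complex II from succinate, complex III passes them to cytochrome c, complex IV hands them to oxygen, and ATP synthase is also called complex V. Complex II is made from nuclear genes alone, while the other complexes join subunits of both genomes. Nuclear genes are transcribed one by one, often under factors such as NRF1, GABPA, YY1 and ESRRA, with PGC-1α (Ppargc1a) as a coactivator. The mitochondrial genes are read from long polycistronic transcripts that are cut into shorter RNAs. Sensory neurons keep axons that are long compared with their cell body and use much ATP to restore ion gradients, most of all the large, fast-firing NF types.

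Complexes were assigned from the symbol, except that Ndufa4 and Ndufa4l2 were placed in complex IV. The nuclear group held 36 genes of complex I and 7 of its assembly factors (Ndufaf). It also held 4 genes of complex II, 8 of complex III, 19 of complex IV and 17 of complex V. Those 17 include Atp5s and Atp5sl, which RefSeq names Dmac2l and Dmac2, so their place in complex V rests on the older symbol alone. The mitochondrial group held 7 genes of complex I, 1 of complex III, 3 of complex IV and 2 of complex V. The nuclear members carried 9441429 UMIs, 4.2% of all 224553362, and the mitochondrial members 11066023 UMIs, 4.93%. Libraries held 13050375 to 88886919 UMIs and 164 to 1370 cells, and the median depth ranged in UMIs per cell from 16889 in endothelial cells to 105150 in NP_Mrgprd. The smallest sums were those of library 1, with 3 cells each in NF2_Ntrk2.Necab2 (NF2 below) and endothelial cells and 4 each in NP_Mrgpra3 and PEP1_Dcn. Between libraries, 7 barcodes were shared. A share of mitochondrial UMIs above 10% was found in 188 cells, most often in NF_Calb1 (16.7% of its cells), PEP2_Htr3a.Sema5a (12.6%), Th (12.5%) and NF2 (12.1%). The labels of the types were checked on marker genes. Pecam1 had a UMI in 56 of 56 endothelial cells, Apoe, Fabp7 and Mbp in 249 of 249 satellite glia, and a list of 6 neuron markers summed to 11408 to 18577 CPM (UMIs scaled to a fixed total per sum, the usual unit of this name) in neuron types, 315 to 999 in glia and 360 to 1321 in endothelial cells. A lower share of UMIs in a group of genes and more UMIs from other genes in the same cell cannot be told apart in any of the values below.

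Promoters of the nuclear genes were searched for short words known as binding motifs of the factors named above. RefSeq promoter windows on GRCm38.p6, from 250 bases before to 50 after the start of the gene, were found for 76 of the 91 nuclear members. Exact words were searched on both strands, and none of the words contains another. The NRF1 word GCATGCGC was found for 12 members (15.8%, against 3.05% of all 27025 genes with a window) and the GABPA word CCGGAAG for 17 (22.4% against 9.93%). For YY1, AAGATGGC was found for 11 members (14.5% against 3.19%), and for ESRRA, TCAAGGTCA for 2, Atp5g3 and Sdhd (2.63% against 0.466%). Both the NRF1 and the GABPA word were found for 5 members, Atp5k, Atp5l, Cox6a1, Sdhb and Uqcr11, which is 6.58% against 0.618% of all genes. At least 1 of these 2 words was found for 24 of 76 members (31.6%, against 12.4% of all genes), so most windows held neither. The shares were not tested. Stretches of 120 bases from 4 of these windows are printed to show how differently the same words sit before genes of complex II, III and V, whose levels are described below. Capitals mark matches to the NRF1 or GABPA word on either strand, each line runs 5′ to 3′ on the strand of its gene, and where only 1 word is in capitals the other lies outside the printed stretch.
Atp5k, ATP synthase subunit e, chr5:108434400-108434519, minus strand: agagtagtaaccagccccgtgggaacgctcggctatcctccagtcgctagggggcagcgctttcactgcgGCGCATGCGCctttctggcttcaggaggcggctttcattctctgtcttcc
Atp5l, ATP synthase subunit g, chr9:44920873-44920992, minus strand: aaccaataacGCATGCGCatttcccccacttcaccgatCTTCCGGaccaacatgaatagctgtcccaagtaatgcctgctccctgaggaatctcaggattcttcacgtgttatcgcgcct
Sdhb, the iron-sulfur subunit of complex II, chr4:140961151-140961270, plus strand: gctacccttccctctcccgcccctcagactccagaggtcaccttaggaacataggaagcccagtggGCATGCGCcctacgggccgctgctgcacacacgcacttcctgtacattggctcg
Uqcr11, a small subunit of complex III, chr10:80406825-80406944, minus strand: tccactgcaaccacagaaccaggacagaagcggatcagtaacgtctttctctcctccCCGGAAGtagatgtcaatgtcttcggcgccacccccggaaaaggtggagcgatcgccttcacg
In Atp5k the word matched on both strands with an overlap, which gives the longer run of capitals. A match is a description of the letters, and no binding was measured here.

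The mitochondrial members lie on chrM in the order ND1 (2751 to 3707), ND2 (3914 to 4951), COX1 (5328 to 6872), COX2 (7013 to 7696), ATP8 (7766 to 7969), ATP6 (7927 to 8607), COX3 (8607 to 9390), ND3 (9459 to 9806), ND4L (9877 to 10173), ND4 (10167 to 11544), ND5 (11742 to 13565) and CYTB (14145 to 15288) on the plus strand, with ND6 (13552 to 14070) on the minus strand, in the GENCODE annotation of GRCm38. ATP8 and ATP6 share 43 bases, from 7927 to 7969, a stretch shorter than a transcript read of 55 bases: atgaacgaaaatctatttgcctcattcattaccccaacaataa. ND4L and ND4 share 7 bases. Whether the UMIs of the genes in such a pair came from separate RNAs was not tested. Copies of mitochondrial sequence are known in the nuclear genome. Of the 55-base words (the length of a transcript read) in the last 400 bases of the transcript, 100% were also found in a transcript of another gene for COX1 and COX2, and 99.7% for COX3, 99.1% for ATP6, 98.8% for ND4L, 98% for ND3 and 21.7% for ND2, so the counts of these genes depend on how shared reads were treated and are uncertain. Among nuclear members the largest shares were those of Atp5l (78.3%), Ndufs3 (62.7%), Atp5h (55.2%) and Atp5g2 (50.7%).

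Nuclear members took the largest share of UMIs in the proprioceptor type NF_Pvalb and in NF2. In NF_Pvalb the share was 6.39%, 5.9%, 8.71%, 6.91% and 7.68% in libraries 1 to 5, or 7.12% ± 1.11 (SD, n = 5). In NF2 it was 8.04%, 6.59%, 6.31%, 6.43% and 6.97%, or 6.87% ± 0.702. These 2 types held the first 2 places in 5 of 5 libraries and their ranges overlapped. The next 2 places were always taken by the cold-sensing type PEP3_Trpm8 (5.33% ± 0.272) and NF_Calb1 (5.03% ± 0.491). Below these came NP_Mrgprd (4.02% ± 0.177), Th (3.98% ± 0.333), NP_Nts (3.92% ± 0.311), PEP1_Slc7a3.Sstr2 (3.84% ± 0.308), PEP1_Dcn (3.69% ± 0.386), PEP2_Htr3a.Sema5a (3.69% ± 0.513), PEP1_S100a11.Tagln2 (3.62% ± 0.318) and NP_Mrgpra3 (3.47% ± 0.161). Neighbours within this list had overlapping ranges. Satellite glia had 2.94%, 2.95%, 3.07%, 3.39% and 3.1%, and endothelial cells 1.59%, 1.57%, 1.7%, 1.85% and 2.05%, the lowest share in 5 of 5 libraries. Among neighbours in this order, the ranges over libraries were apart for NF2 and PEP3_Trpm8, for NF_Calb1 and NP_Mrgprd, and for glia and endothelial cells.

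Mitochondrial members followed another order. Their share was highest in NF2, with 7.43%, 7.8%, 8.58%, 7.32% and 6.4% (7.5% ± 0.791), followed by NF_Pvalb (7.25% ± 0.621), Th (6.94% ± 0.861) and NF_Calb1 (6.84% ± 0.591). NF2 and Th were each first in 2 of 5 libraries and NF_Pvalb in 1. Satellite glia came next with 6.32%, 6.72%, 5.74%, 5.6% and 6.14%, although they were 13th of 14 types by the nuclear share. PEP3_Trpm8, which followed the 2 leading types by the nuclear share, came 12th with 4.1% ± 0.679. The lowest shares were those of NP_Mrgprd (3.98% ± 0.474) and endothelial cells (2.41% ± 0.43). In the mitochondrial order, NP_Mrgprd and endothelial cells were the only neighbours whose ranges were apart. Over the 12 neuron types, each a mean of the same 5 libraries, Pearson's r between both shares was 0.6 and Spearman's rho 0.34. Within libraries 1 to 5 rho was 0.41, 0.41, 0.30, 0.00 and 0.22. Between UMIs per cell and the nuclear share r was 0.19, and for the mitochondrial share it was 0.27.

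**Figure D1:**
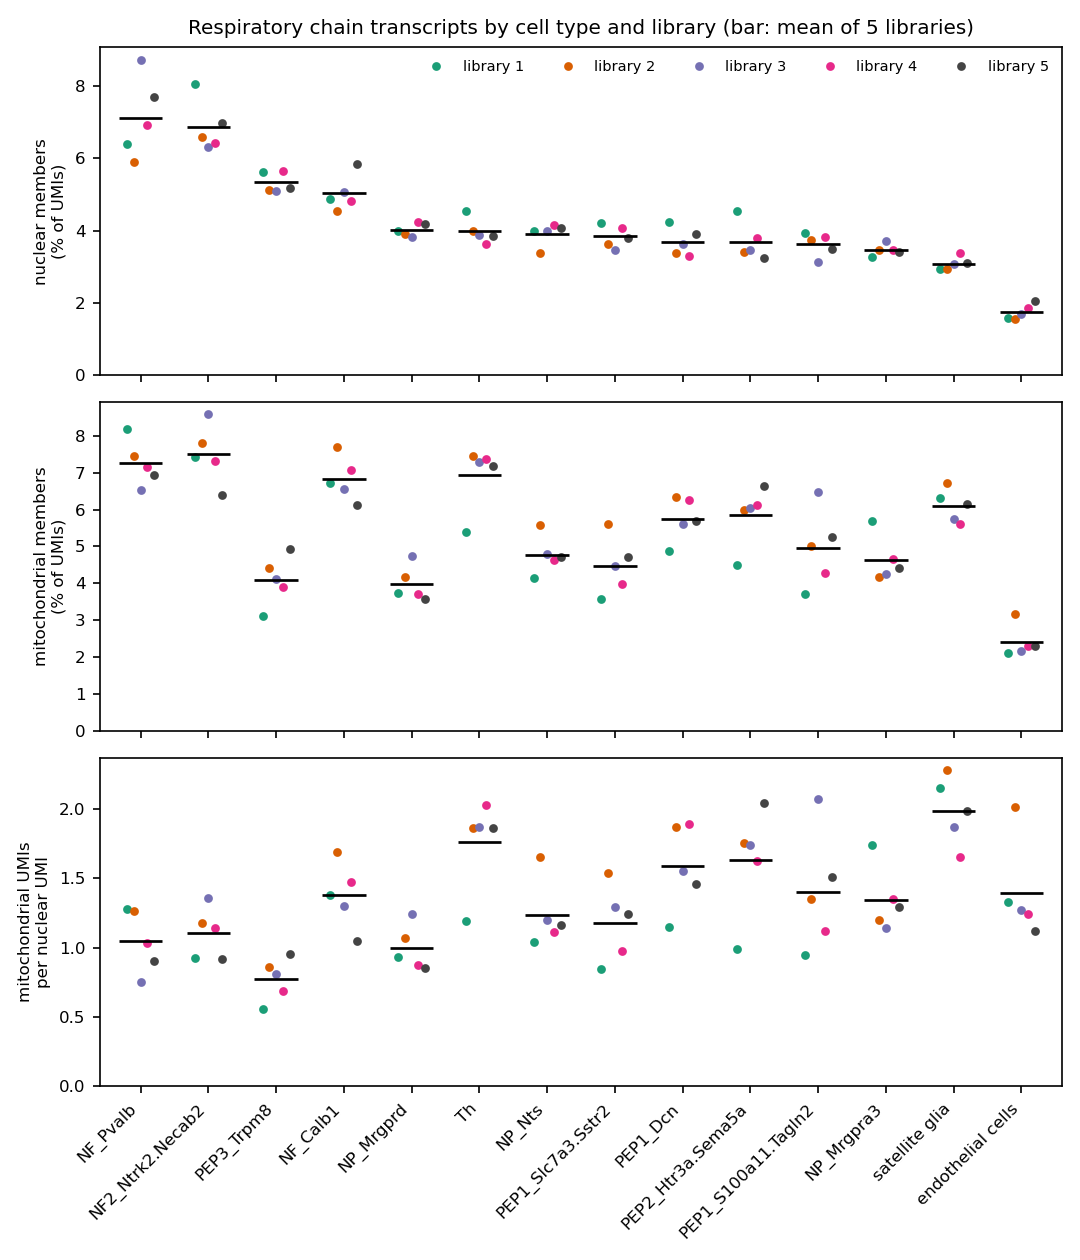
Share of all UMIs (percent) in the nuclear and in the mitochondrial members for each of the 14 cell types, and their ratio, with 1 point per library and a bar for the mean of 5 libraries. NF_Pvalb and NF2 have the highest means in both groups, PEP3_Trpm8 is the third by the nuclear share and 12th by the mitochondrial share, and endothelial cells are last in both.

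The ratio of mitochondrial to nuclear UMIs summarises this. It was highest in satellite glia, at 2.15, 2.28, 1.87, 1.65 and 1.98 in libraries 1 to 5 (1.99 ± 0.244), and lowest in PEP3_Trpm8, at 0.554, 0.862, 0.812, 0.689 and 0.954 (0.774 ± 0.156). Glia were first of the 14 types in 2 of 5 libraries, with PEP1_S100a11.Tagln2, PEP2_Htr3a.Sema5a and Th first in 1 each, and PEP3_Trpm8 was last in 3. Th (1.76 ± 0.326), PEP2_Htr3a.Sema5a (1.63 ± 0.39) and PEP1_Dcn (1.58 ± 0.309) lay near the upper end, and NF2 (1.1 ± 0.187), NF_Pvalb (1.05 ± 0.23) and NP_Mrgprd (0.994 ± 0.16) near the lower end, so that the types with the largest shares did not have the largest ratios. No neighbours in this order had ranges that were apart. Cells above 10% mitochondrial share were more frequent in Th and PEP2_Htr3a.Sema5a than in PEP3_Trpm8 (1.19%), and without these cells the ratio was 1.94 in glia, 1.59 in Th, 1.42 in PEP2_Htr3a.Sema5a and 0.76 in PEP3_Trpm8.

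**Figure D2:**
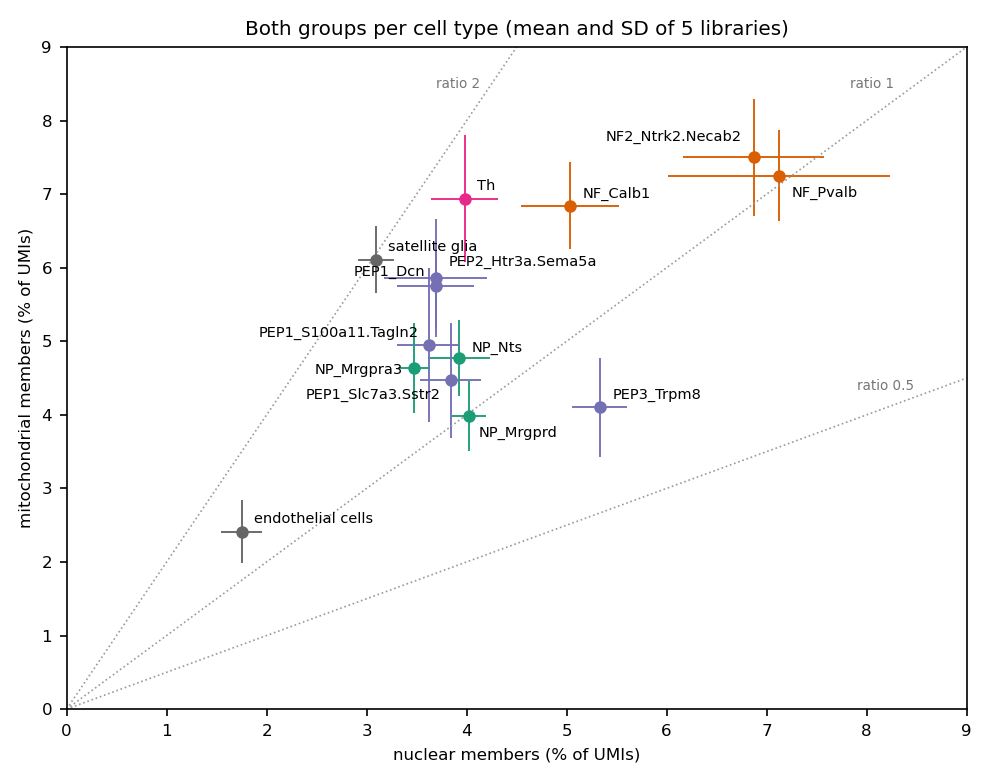
Mitochondrial against nuclear share of UMIs (percent) for the 14 types, with the mean and SD over 5 libraries and lines of constant ratio. Satellite glia lie at a ratio of 1.99 and PEP3_Trpm8 at 0.774, on opposite sides of the other types.

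The complexes shared this pattern with differences in detail. Nuclear complex I members summed to 21663 ± 3747 CPM in NF_Pvalb, 20345 ± 2193 in NF2, 16435 ± 755 in PEP3_Trpm8 and 4643 ± 743 in endothelial cells. Complex IV followed the same order at its ends, with 23456 ± 3781 CPM in NF_Pvalb, 22469 ± 2958 in NF2, 16733 ± 1157 in PEP3_Trpm8 and 5637 ± 638 in endothelial cells. Complex II, the only complex without a mitochondrial gene, was highest in PEP3_Trpm8 (1102 ± 94.5 CPM), with ranges that overlapped those of NF_Pvalb (985 ± 49.7) and NF2 (952 ± 56.2). The assembly factors of complex I were highest in NF_Pvalb (592 ± 77.8 CPM), ahead of PEP3_Trpm8 (437) and NF2 (421). The ratio of mitochondrial to nuclear members in PEP3_Trpm8 was the lowest of the 14 types for complex I (0.661 ± 0.142), complex III (0.815 ± 0.156) and complex V (0.634 ± 0.161) and 13th for complex IV (1.06 ± 0.19). In satellite glia the ratio was the highest for complex I (1.6 ± 0.227) and complex IV (2.87 ± 0.409).

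Single members mostly followed the NF types. Of the 91 nuclear members, 37 had their highest mean CPM among the neuron types in NF_Pvalb and 32 in NF2, together 75.8%, against 20.8% of the 11561 rows tested across neuron types. PEP3_Trpm8 was the highest neuron type for 13 members (14.3%, against 13.1% of the rows tested). These were Atp5b, Atp5g2, Cox8a, Ndufs4, Ndufs5, Ndufs7, Ndufaf3, Ndufaf6, Uqcrc1, Uqcrc2, Uqcrfs1, Sdhb and Sdhd, among them the core subunits Atp5b (1773 ± 344 CPM), Uqcrfs1 (400 CPM), Uqcrc1 (469 CPM) and Sdhb (549 CPM). The lowest neuron type was NP_Mrgpra3 for 26 members, PEP2_Htr3a.Sema5a for 16 and PEP1_Dcn for 14, against 1153, 458 and 681 of the 11561 rows tested. Endothelial cells were the lowest of all 14 types for 79 of 91, against 4289 of these 11561 rows. Among the 13 mitochondrial members, NP_Mrgprd was the lowest neuron type for 10 and PEP3_Trpm8 for 3, against 1514 and 1112 of the 11561 rows.

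Across the 12 neuron types, edgeR's quasi-likelihood F test called 87 of 87 nuclear members tested and 12 of 13 mitochondrial members at an adjusted p under 0.05 (Benjamini-Hochberg over 11561 rows), and 96.8% of all rows tested were called too, so the counts do not set the members apart. ATP8 was not called (adjusted p = 0.1). The ratio of the highest to the lowest type had a median of 2.33 over the nuclear members and 2.05 over the mitochondrial members, beside 3.29 over all rows. The largest ratios among members of at least 50 CPM in 1 type were those of Cox7a1, Ndufaf2, Ndufaf5, Ndufa12 and Uqcr10. Ndufaf2, an assembly chaperone that is close in sequence to Ndufa12, ranged from 217 ± 46.5 CPM in NF_Pvalb to 37.1 in PEP1_Dcn, a ratio of 5.84. Ndufa12, the subunit that takes the place of Ndufaf2 in the mature complex, ranged from 685 ± 141 CPM in NF_Pvalb to 156 in NP_Mrgpra3. Ndufaf5, which modifies Ndufs7 during assembly, ranged from 156 CPM in NF_Pvalb to 35.4 in PEP1_Slc7a3.Sstr2 (ratio 4.41, edgeR adjusted p = 7.3e-31). Uqcr10, a small subunit of complex III, was highest in NF2 (1407 ± 130 CPM) and lowest in NP_Mrgpra3 (386). For the mitochondrial ATP6 the level was 25732 ± 3029 CPM in NF2 and 8186 ± 1608 in PEP3_Trpm8, a ratio of 3.14.

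The first pair of groups asked how neurons differ from the glia that surround them. In sums pooled over all neuron types, nuclear members were more often higher than lower in neurons, and mitochondrial members were lower. The nuclear share was 4.24% ± 0.177 in all neurons and 3.09% ± 0.181 in glia, a log2 fold of 0.46 ± 0.09 over 5 libraries and higher in 5 of 5. The mitochondrial share was 4.64%, 5.47%, 5.6%, 4.74% and 4.59% in neurons and 6.32%, 6.72%, 5.74%, 5.6% and 6.14% in glia, lower in neurons in 5 of 5 libraries (log2 fold -0.29 ± 0.17). By type, the mean share was above that of glia (6.11%) in NF2 (7.5%), NF_Pvalb (7.25%), Th (6.94%) and NF_Calb1 (6.84%) and below it in the other neuron types. With each type weighted equally the log2 fold was -0.13 ± 0.13, and with mean shares per cell -0.19 ± 0.17. In each of these, 1 of 5 libraries lay above 0. Counted as UMIs per cell the direction turned (log2 fold 1.76), as the median depth was 30800 to 105150 UMIs per cell in neuron types and 17729 in glia. Of 87 nuclear members tested on sums per library, edgeR called 48 higher in neurons (55.2%, against 45.6% of all 12109 rows) and 10 lower (11.5%, against 30.7%). Of the 13 mitochondrial members, 9 were lower and 0 higher. The median log2 fold was 0.31 over the nuclear and -0.54 over the mitochondrial members, beside 0.35 over all rows, so the nuclear members as a list lay at the level of all rows. With total UMIs in place of TMM factors the all-row median was 0.52, and with DESeq2 it was -0.03 with 0.33 for the nuclear members. Both groups stood apart without overlap for 52 nuclear members above and 5 below (43.2% and 22.7% of all rows) and for 6 mitochondrial members below.

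By complex, 20 of 36 complex I subunits and 5 of 7 assembly factors were higher in neurons, 3 and 0 lower, where 45.6% of all rows were higher and 30.7% lower. Among the members with the largest folds was Cox7a2l. It had 620, 650, 556, 677 and 664 CPM in neurons and 184, 179, 194, 222 and 240 CPM in glia. Every neuronal value was above every glial value, with a log2 fold of 1.48 (SE 0.11, adjusted p = 1.8e-09 in edgeR). Ndufa10, an accessory subunit of complex I, had 325 ± 29.5 against 108 ± 15.8 CPM (log2 fold 1.42). Ndufaf5 (log2 fold 1.6) and the low-level genes Atp5s (22.6 against 3.37 CPM, log2 fold 2.21) and Atp5sl (23.3 against 5.27 CPM, log2 fold 2.16) completed the 5 largest. Core subunits were moderately higher, such as Ndufv1, which binds NADH (log2 fold 0.98), Sdhb (0.91) and Atp5a1 (0.63).

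Members lower in neurons were led by isoforms of complex IV that are known from other tissues. Cox6b2, known from testis, had 27.7, 60.5, 38.1, 51.5 and 28.9 CPM in glia and 0.318 to 0.701 CPM in neurons (log2 fold -6.36, SE 0.26, edgeR adjusted p = 2.6e-13). Cox7a1, known from heart and muscle, had 48.8 ± 11.8 CPM in glia and 6.36 ± 0.893 in neurons (log2 fold -3.16), and Cox4i2 had 11.5 against 2.12 CPM (log2 fold -2.6). For the membrane anchor Sdhc of complex II the values were 123 ± 18.9 CPM in glia and 73.4 ± 6.31 in neurons, while its partner Sdhb was higher in neurons. Uqcrb of complex III was lower in neurons with a log2 fold of -0.51.

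All 13 mitochondrial members had a fold below 0, with and without TMM and with DESeq2. COX1, the catalytic subunit of complex IV, had 5900, 5985, 6730, 5203 and 4801 CPM in neurons and 9988, 9466, 8882, 7662 and 8603 in glia. Neurons were below glia in every library, with a log2 fold of -0.8 (SE 0.12, adjusted p = 7.6e-06 in edgeR). ND4L (184 against 393 CPM, log2 fold -1.27) and ND2 (-0.82) had the largest folds beside it, followed by ND5 (-0.61), COX2 (-0.59), ND6 (-0.58), ND4 (-0.54), COX3 (-0.52) and CYTB (-0.46). The call for ND6 (edgeR adjusted p = 0.021) was lost without library 2 (-0.50) or library 3 (-0.40) and without TMM (-0.41). ATP6, with 13973 ± 987 against 14152 ± 865 CPM, was not called (log2 fold -0.18, edgeR adjusted p = 0.13), nor were ND1 (-0.2), ND3 (-0.29) and ATP8 (-0.36). DESeq2 called ATP6 (-0.15) and ND1 (-0.17), and with the library as a block edgeR called ND3 and ATP8 (adjusted p = 0.027 for each).

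Endothelial cells, with 56 cells in all, had low levels of nearly every nuclear member. Of 87 tested, 83 were higher in neurons (95.4%, against 55.3% of 11683 rows) and 2 lower (2.3%, against 19.2%). The median log2 fold was 1.8 for the nuclear and 1.08 for the mitochondrial members, beside 1.25 over all rows (0.89 without TMM). Ranges were apart for 77 nuclear members above and 2 below (43% and 15.9% of all rows) and for 7 mitochondrial members above. Ndufv3, an accessory subunit next to the NADH site, had 631, 603, 562, 645 and 689 CPM in neurons and 17.2, 62.9, 88.6, 104 and 139 in endothelial cells, a log2 fold of 3.23 (SE 0.22, adjusted p = 1.3e-10 in edgeR). Ndufaf5 (49.6 against 3.87 CPM, log2 fold 3.58) and Ndufaf1 (35.1 against 4.24 CPM, log2 fold 3.41) rested on 5 and 4 endothelial UMIs. Ndufaf6 (27.6 against 0.662 CPM) and Atp5s (22.6 against 3.7 CPM) rested on 1 and 2 endothelial UMIs, so no fold is given for them.

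Of the mitochondrial members, 10 were higher in neurons and 0 lower, led by ATP6, with 13973 ± 987 against 5698 ± 1054 CPM (log2 fold 1.68), ND1 (1.63), COX3 (1.6) and ND4 (1.53). ND2 (0.55) and ND5 (0.53), both at an edgeR adjusted p of 0.014, were no longer called without library 1 (0.07 and 0.11), without TMM (0.17 and 0.16) or with only sums of at least 10 cells (-0.06 and -0.04), and ND2 was not called without library 3 (0.48) or library 5 (0.02). The call for ND5 was lost without library 5 (-0.07). ND4L (0.29), ND6 (0.59) and ATP8 (-0.11) were not called.

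The 2 members lower in neurons were Ndufa4l2 and Cox4i2, both known as isoforms that respond to low oxygen and are abundant in pericytes, the mural cells of small vessels. Ndufa4l2 had 68.6, 19.8, 18.5, 14.9 and 27.7 CPM in endothelial cells and 0.343 ± 0.0822 in neurons (log2 fold -5.77, SE 0.5, edgeR adjusted p = 4.5e-09). Cox4i2 had 34.3, 23.2, 25.8, 14.9 and 9.24 against 2.12 CPM (log2 fold -2.94). Counts were small, with 21 UMIs of Ndufa4l2 in 12 of 56 endothelial cells and 20 UMIs of Cox4i2 in 13. All 5 pericyte markers searched (Rgs5, Acta2, Kcnj8, Notch3 and Pdgfrb) had UMIs in this type and summed to 144 to 721 CPM, against 7.56 to 27.7 in glia. The sum was 114 to 253 CPM in Th, where Acta2, Kcnj8 and Notch3 were at 0, and had a mean of 98.7 in NP_Mrgpra3 and 85.1 in NF2. Acta2 had a UMI in only 2 of 56 endothelial cells, and in libraries 3, 4 and 5 it was at 0 CPM there, against 11.8, 4.75 and 8.66 in glia. The 12 cells with an Ndufa4l2 UMI held a median of 12 pericyte marker UMIs and the 44 cells without held 0. For Cox4i2 the medians were 11 and 0. A list of 7 glial markers summed to 1527 to 15254 CPM in the endothelial sums, with Cdh19 at 0, against 80350 to 104109 in glia. In the same endothelial sums 4 erythrocyte markers summed to 0 to 16632 CPM (mean 4288). There 5 fibroblast markers summed to 9.93 to 805 CPM, with Pdgfra at 0. The part of such transcripts in the other differences was not tested.

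NF and NP neurons differ in calibre and firing, as most NF neurons have thick, myelinated axons and NP neurons thin, unmyelinated ones. Both groups of members took a larger share in NF neurons. The nuclear share was 5.63%, 5.21%, 5.95%, 6.02% and 6.67% in NF and 3.93%, 3.81%, 3.84%, 4.15% and 4.11% in NP neurons, without overlap (log2 fold 0.57 ± 0.10). The mitochondrial share was 7.04% ± 0.463 against 4.15% ± 0.351 (log2 fold 0.76 ± 0.14, higher in 5 of 5 libraries), and the ratio of both differed by 0.2 ± 0.21 on the log2 scale. Of 87 nuclear members tested, 50 were higher in NF neurons (57.5%, against 39.7% of 11862 rows) and 14 lower (16.1%, against 37.7%). With total UMIs in place of TMM the split was 64 higher and 6 lower. The mitochondrial members gave 10 higher and 0 lower. Median log2 folds were 0.33 for nuclear and 0.61 for mitochondrial members, beside 0.02 over all rows (0.18 without TMM). Ranges were apart for 58 nuclear members above and 4 below (38.2% and 26.4% of all rows) and for 8 mitochondrial members above.

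By complex, 20 of 36 members of complex I, 3 of 7 assembly factors, 2 of 4 members of complex II, 4 of 8 of complex III, 9 of 15 tested of complex IV and 12 of 17 of complex V were higher in NF neurons, and 5, 3, 1, 1, 2 and 2 lower. Of all rows, 39.7% were higher and 37.7% lower, and the assembly factors were near these shares. Atp5k, whose promoter is printed above, had 1339, 1421, 1616, 1193 and 1449 CPM in NF neurons and 569, 647, 623, 434 and 515 in NP neurons. The lowest NF value was above the highest NP value, and the log2 fold was 1.18 (SE 0.11, adjusted p = 1.3e-07 in edgeR). Uqcr11 was higher too (1149 ± 143 against 733 ± 63.7 CPM, log2 fold 0.49), Atp5l was not called (0.17, adjusted p = 0.13 in edgeR) and Sdhb was lower (361 ± 41.7 against 408 ± 23.7 CPM, log2 fold -0.33), so the 4 genes whose promoters are printed did not share a direction.

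The core subunits split in the same way. Cox4i1, the common form of subunit 4 of complex IV, had 2961, 2859, 2974, 3833 and 3887 CPM in NF neurons and 1385, 1533, 1396, 1641 and 1593 in NP neurons (log2 fold 0.97, SE 0.12). Cox5a (1569 ± 207 against 681 ± 74.3 CPM, log2 fold 1.05), Sdha, the flavoprotein of complex II (266 ± 17 against 120 ± 13.1 CPM, 0.99), Ndufs1 (114 against 52.7 CPM, 0.95) and Atp5a1 (0.4) were higher in NF neurons. Ndufv1 was lower, with 163, 175, 208, 184 and 163 CPM against 286, 261, 302, 290 and 288 (log2 fold -0.84, SE 0.09, adjusted p = 3.2e-07 in edgeR). Uqcrc1 was lower too (-0.27), and Atp5b (0.11) and Uqcrfs1 (-0.03) were not called. Of the most abundant member in each complex, Uqcrh was higher (1766 against 813 CPM, log2 fold 0.96), Sdhb was lower as given above, and Ndufb8 (0.04), Ndufa4 (0.21) and Atp5l were not called.

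Assembly factors went both ways. Ndufaf5 was higher in NF neurons (97.6 against 40.9 CPM, log2 fold 1.1) and Ndufaf3 (43.2 ± 5.27 against 78.6 ± 8.85 CPM, -1.03) and Ndufaf7, a methyltransferase (34.4 against 60.6 CPM, -0.98), were lower. Among the other subunits, Ndufa12 was higher (519 ± 68.4 against 214 ± 12.6 CPM, 1.12) and Ndufa9 (131 against 178 CPM, -0.6) and Ndufs4 (181 against 231 CPM, -0.52) were lower. With each type given equal weight the fold of Ndufs4 was -0.2 (edgeR adjusted p = 0.096).

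Of the mitochondrial members ATP6 had 21336, 24620, 20565, 25389 and 22511 CPM in NF and 10717, 11838, 12230, 11295 and 11148 in NP neurons. Each NF value was above every NP value (log2 fold 0.84, SE 0.09, adjusted p = 9e-07 in edgeR). CYTB (7330 ± 446 against 3855 ± 369 CPM, 0.77), ND2 (0.71), COX1 (0.63), ND4 (0.62), ND5 (0.61), ND4L (0.61), ND1 (0.55), ND3 (0.47) and COX2 (0.46) were also higher. COX3, which lies next to ATP6 on chrM, had 7727 ± 861 against 6676 ± 866 CPM and was not called (0.05, edgeR adjusted p = 0.65), nor were ATP8 (0.78) and ND6 (0.04). With the library as a block ATP8 was called (0.75), and without library 1 the call for ND3 was lost (0.42, adjusted p = 0.067).

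**Figure D3:**
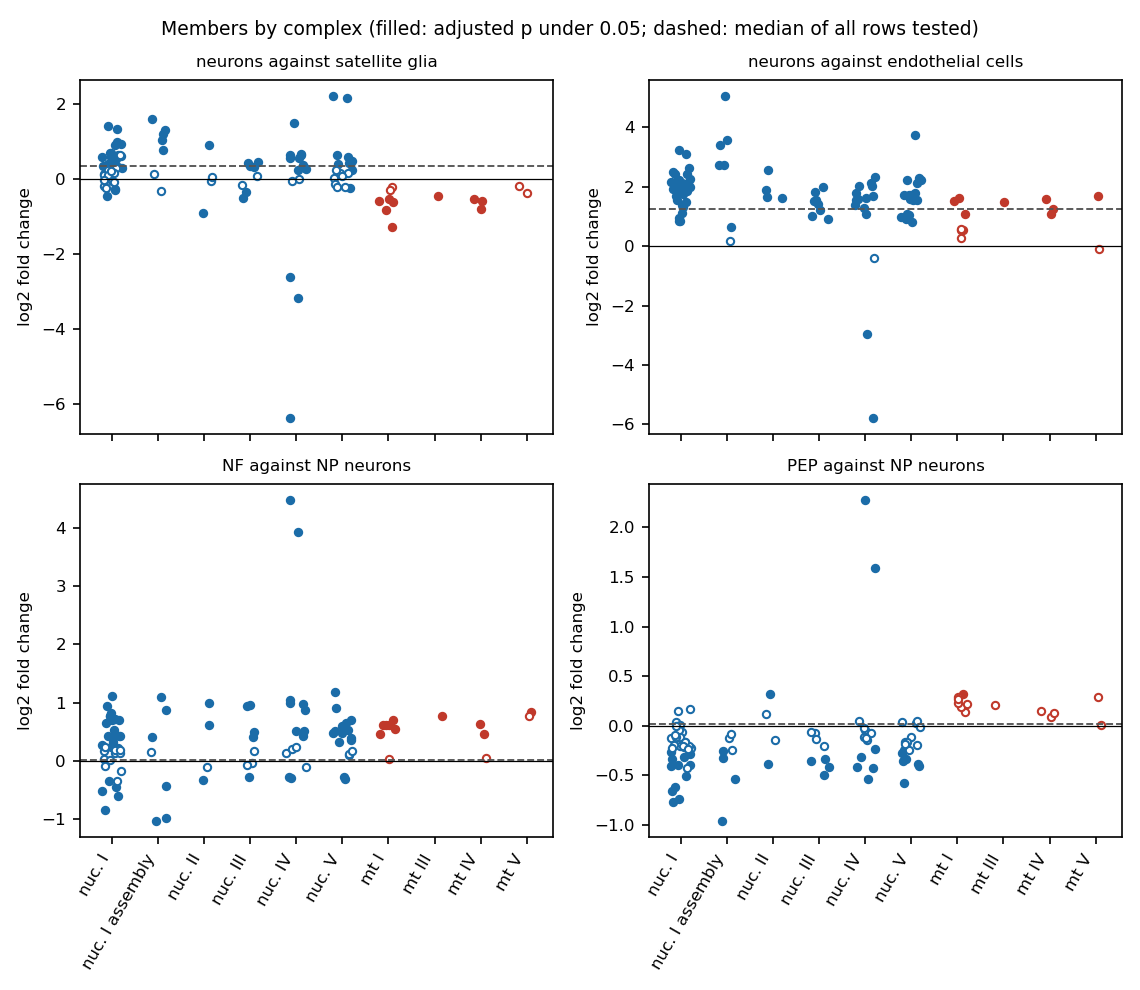
Log2 fold of each member tested in the 4 comparisons, arranged by complex and genome, with the members called at an adjusted p under 0.05 in edgeR as filled points and the median of all rows as a dashed line. Against endothelial cells, the points of Ndufaf6 and Atp5s rest on 1 and 2 endothelial UMIs. In NF against NP neurons 50 nuclear and 10 mitochondrial members are called higher, and in neurons against satellite glia 9 mitochondrial members are called lower.

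PEP and NP neurons differed less. The nuclear share differed by a log2 fold of -0.03 ± 0.12, and the mitochondrial share was 4%, 5.71%, 5.51%, 4.86% and 5.54% in PEP against 4.15% ± 0.351 in NP neurons (log2 fold 0.3 ± 0.20, higher in 5 of 5 libraries, with overlapping ranges). As UMIs per cell the mitochondrial fold turned to -0.5. Of 86 nuclear members tested, 33 were lower in PEP neurons (38.4%, against 31.9% of 12319 rows) and 3 higher (3.49%, against 34.0%), and 1 mitochondrial member, ND5, was higher. The median log2 fold was -0.2 for nuclear and 0.21 for mitochondrial members, beside 0.02 over all rows. With total UMIs in place of TMM the all-row median was 0.20, and 18 nuclear members were lower and 7 higher. With the library as a block, 47 nuclear members were lower and 7 mitochondrial members higher. Ranges were apart for 4 nuclear members above and 6 below (32.7% and 16.5% of all rows).

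The lower members belonged to each complex, with 12 of 36 complex I subunits, 4 of 7 assembly factors, 1 of 4 complex II members, 4 of 8 of complex III, 5 of 14 tested of complex IV and 7 of 17 of complex V. Of all rows, 31.9% were lower in PEP neurons, and complex I was near this share. Ndufv1 had 180, 155, 248, 204 and 161 CPM in PEP neurons and 286, 261, 302, 290 and 288 in NP neurons (log2 fold -0.77, SE 0.11, adjusted p = 2.7e-05 in edgeR). Ndufaf7 (35.4 ± 6.35 against 60.6 ± 5.28 CPM, -0.96), Ndufa9 (-0.74), Ndufv3 (505 against 706 CPM, -0.66) and Ndufs4 (-0.62) were the other members with the largest folds. NP_Mrgprd was the highest neuron type for Ndufv1 (303 CPM) and Ndufaf7 (67.5 CPM) and NP_Nts for Ndufa9 (192 CPM), while Ndufv3 was highest in NF2 (900 CPM) and Ndufs4 in PEP3_Trpm8 (262 CPM). Both comparisons with NP neurons share the same NP sums.

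The higher members were Cox7a1 (7.71 ± 1.2 against 1.44 ± 0.428 CPM, log2 fold 2.28), Cox4i2 (4.65 ± 0.817 against 1.41 ± 0.211 CPM, 1.59) and Sdha (170 ± 36.1 against 120 ± 13.1 CPM, 0.32). The call for Sdha (edgeR adjusted p = 0.027) was lost without library 2 (0.059) or library 4 (0.054). ND5 had 277 ± 41.2 against 196 ± 23.6 CPM (0.32), and its call (edgeR adjusted p = 0.015) was lost without library 2 (0.061) or library 5 (0.069). With the library as a block, ND1, ND2, ND3, ND4L, ATP8 and CYTB were called too, at log2 folds of 0.20 to 0.30. ATP6 was not called (0.01).

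Tissue isoforms of complex IV were unevenly spread over the types. Each belongs to a pair with a common isoform, and the rare one held a small part of the UMIs of its pair throughout. Cox6a2, the heart and muscle form of subunit 6A, had 165 UMIs in all, 117 (70.9%) of them in NF2. Its level in NF2 was 7.17, 10.8, 26, 31.6 and 17.1 CPM, and 41 of 58 NF2 cells had a UMI (70.7%, exact Clopper-Pearson 95% interval 57.3% to 81.9%, median 96530 UMIs per cell). In NP_Mrgprd, at a median of 105150 UMIs per cell, 12 of 900 cells had one (1.33%). The mean level was 1.92 CPM in PEP3_Trpm8 and 1.14 CPM in NP_Mrgpra3, and no UMI was found in NP_Nts, PEP1_S100a11.Tagln2, Th, glia (0 of 249 cells, median depth 17729 UMIs, which allows a share of cells with a UMI of up to 1.2% and sets no limit on cells that express it) or endothelial cells. The higher level of NF over NP neurons (4.37 ± 3.6 against 0.199 ± 0.0939 CPM, log2 fold 4.48, edgeR adjusted p = 1.2e-06) therefore rests on NF2. Even in NF2 the Cox6a2 UMIs made up 1.21% of those of Cox6a1 and Cox6a2 together.

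Cox7a1 was found in NF2 and in satellite glia. In NF2 it had 161, 72.5, 76.3, 77.1 and 67.8 CPM and a UMI in 55 of 58 cells (94.8%), and library 1, with 3 NF2 cells, stood above the other 4. In glia it had 47.9, 37.4, 68.6, 46.7 and 43.3 CPM, in 128 of 249 cells (51.4%). Lower levels were found in PEP1_Dcn (12.1 CPM), PEP2_Htr3a.Sema5a (11.6 CPM, 51.9% of cells) and NF_Calb1 (11.3 CPM), and 0.663 to 5.7 CPM in the other neuron types. It was 5.09% ± 1.09 of the Cox7a1 and Cox7a2 pair in NF2 and 6.07% ± 1.24 in glia.

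Cox6b2 had 350 UMIs, 209 (59.7%) of them in satellite glia, where 133 of 249 cells had one (53.4%, interval 47% to 59.7%) at a median of 17729 UMIs per cell. In NP_Mrgprd, at a median of 105150 UMIs per cell, 38 of 900 cells had one (4.22%), and in endothelial cells 1 of 56. It was 4.69% ± 1.39 of the Cox6b1 and Cox6b2 pair in glia. Cox4i2 was more widely spread, with 21.5 ± 9.75 CPM in endothelial cells, 11.5 ± 4.37 in glia, 7.48 ± 0.998 in PEP1_Slc7a3.Sstr2 (77 of 342 cells, 22.5%) and 5.86 ± 3.85 in NF2 (22 of 58 cells, 37.9%). NF_Pvalb had no UMI in 113 cells, which allows a share of cells with a UMI of up to 2.65% and sets no limit on cells that express it. Cox8b, another muscle isoform, had 9 UMIs in all, 5 in NF_Pvalb, 3 in NF_Calb1 and 1 in NF2, Cox7b2 had 123 UMIs, and Cox8c was not among the rows.

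**Figure D4:**
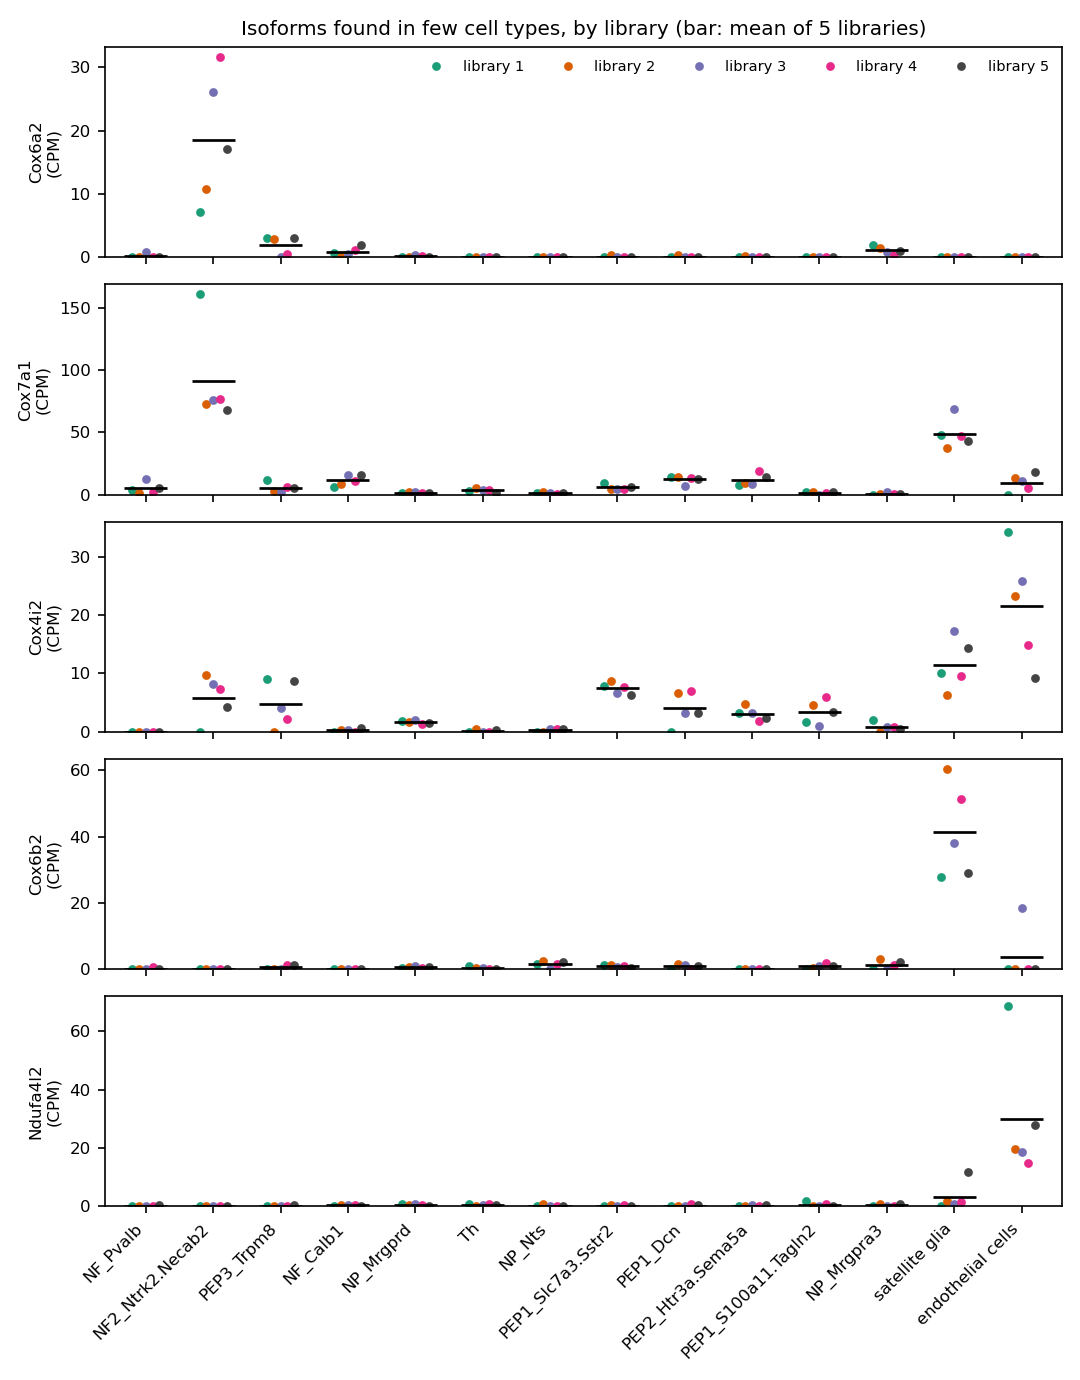
Level (CPM) of the rare isoforms in each cell type, with 1 point per library and a bar for the mean of 5 libraries. Cox6a2 is highest in NF2 (18.6 CPM), Cox7a1 in NF2 (91 CPM) and glia (48.8 CPM), Cox6b2 in glia (41.3 CPM), and Cox4i2 and Ndufa4l2 in endothelial cells (21.5 and 29.9 CPM).

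The makeup of the mitochondrial group also varied by type. Over all cells ATP6 held 28.3% of the UMIs of the group, COX3 15.1%, ND1 13%, COX1 11.1%, COX2 10.5%, CYTB 9.65%, ND4 7.27%, ND2 2.86% and the other 5 members 1.2% or less each. The ATP6 share was 28.9%, 33%, 32.2%, 40.1% and 38.2% in NF2 (34.5% ± 4.6) and 19.1%, 18.6%, 19.9%, 20.7% and 21.2% in PEP3_Trpm8 (19.9% ± 1.08). These ranges were apart, and NF_Calb1 (33.1% ± 2.44) and PEP2_Htr3a.Sema5a (31.6% ± 1.3) lay near NF2, and PEP1_Slc7a3.Sstr2 (20.3% ± 0.375) and NP_Nts (21.7% ± 0.558) near PEP3_Trpm8. COX3 went the other way, with 21% ± 0.687 in PEP3_Trpm8 and 10.4% ± 1.91 in NF2. Depth moved with these shares. Over the 12 neuron types, which share libraries, UMIs per cell and the ATP6 share had a Pearson r of 0.83 and a Spearman rho of 0.84, and for COX3 these were -0.76 and -0.78. Endothelial cells had the highest shares of COX1 (14.8%), ND2 (5.37%) and ND5 (0.88%). Nearly all words of ATP6 and COX3 occur in other transcripts too, as given above, and the part of shared reads and of depth in this makeup was not tested.

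**Figure D5:**
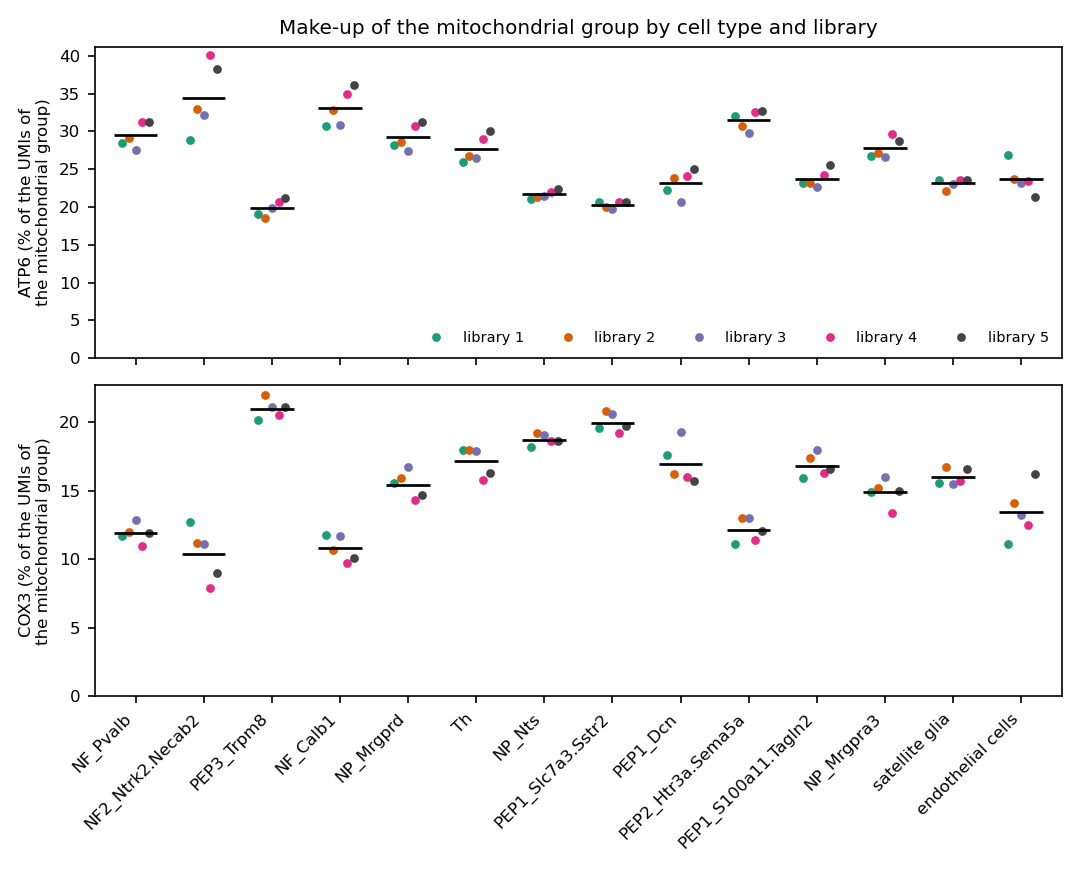
Share of the UMIs of the mitochondrial group (percent) held by ATP6 and by COX3 in each cell type, with 1 point per library and a bar for the mean of 5 libraries. ATP6 ranges from 19.9% in PEP3_Trpm8 to 34.5% in NF2, and COX3 from 10.4% in NF2 to 21% in PEP3_Trpm8.

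Genes that serve the chain were described from 4 lists. In NF against NP neurons, 9 of 18 genes of mitochondrial gene expression and its regulation were higher and 3 lower, with a median log2 fold of 0.24, where 39.7% of all rows were higher and 37.7% lower. The coactivator Ppargc1a had 78.6 ± 16.3 against 4.63 CPM (log2 fold 3.98), with 118 ± 14.2 CPM in NF_Pvalb, 32.6 ± 5.92 in NF2 and 34.4 in glia. Its relative Ppargc1b (33.3 against 1.17 CPM, 4.46) and the nuclear receptor Esrra (68.5 against 7.03 CPM, 3.06, edgeR adjusted p = 1.1e-11) were higher in NF neurons too, as were Polg, the mitochondrial DNA polymerase (1.74), and Polrmt, the mitochondrial RNA polymerase (1.19), while Mterf4 was lower (-1.51). Of 13 citrate cycle genes, 9 were higher and 0 lower (median 0.68). Of 37 assembly and carrier genes, 15 were higher (40.5%, near the share of all rows) and 12 lower (median 0.23), such as the ATP synthase assembly factors Atpaf1 (1.27) and Atpaf2 (-1.8). Of 16 glycolysis genes, 9 were higher and 6 lower (median 0.46), with Eno2 (3.86), Ldhb (2.81) and Hk1 (1.29) higher and Ldha (357 against 666 CPM, -1.06) and Pfkl (-1.73) lower.

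Neurons against glia showed 26 of 37 assembly and carrier genes higher (70.3%, against 45.6% of all rows) and 2 lower (5.41%, against 30.7%; median 0.69), led by Atpif1, the inhibitor of ATP synthase (1688 against 311 CPM, log2 fold 2.29). Genes of mitochondrial gene expression gave 6 higher and 6 lower of 18 (33.3% each), with Tfam, which packs mitochondrial DNA (11.3 against 23 CPM, -1.14), Nrf1 (-1.25), Gabpa (-1.14) and Ppargc1a (-1.06) among those lower in neurons. The neuron sums pool all types, and Ppargc1a was above its glial level (34.4 CPM) in NF_Pvalb (118 CPM) and NF_Calb1 (75 CPM) and below it in the other neuron types. Of the citrate cycle genes 7 were higher and 2 lower, and Suclg2 stood out with 1.8 CPM in neurons against 63.2 in glia (-5.25). Glycolysis genes gave 12 higher and 3 lower, with Pfkp higher (3.74) and Aldoc (128 against 1068 CPM, -3.22) and Ldhb (194 against 1131 CPM, -2.71) lower in neurons. Against endothelial cells, the counts higher and lower in neurons were 31 and 0 of the assembly and carrier genes, 9 and 3 of mitochondrial gene expression, 12 and 1 of the citrate cycle and 13 and 0 of glycolysis, where 55.3% of all rows were higher and 19.2% lower. In PEP against NP neurons the counts higher and lower were 2 and 17 of 37 assembly and carrier genes, 4 and 4 of 18 of mitochondrial gene expression, 4 and 2 of 13 of the citrate cycle and 4 and 6 of 16 of glycolysis, where 34.0% of all rows were higher and 31.9% lower.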

How the data were processed

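The deposited table holds raw UMI counts per gene and cell, which the authors made without normalization, using Cell Ranger, the mm10 build and gene models from UCSC, and a second deposited table gives 1 cell type per cell, which the authors named after clustering in Seurat. The authors describe a limit of 10% on the mitochondrial share, but 188 deposited cells exceed it and were kept. The authors loaded few cells per lane to limit doublets, and no doublet caller was run. Rows that name no gene (4, with 6.37e-05 percent of UMIs) were left out.

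UMIs were summed per library and class with Python 3.11.15 (numpy 2.4.6, pandas 2.3.3, scipy 1.17.1), so that libraries and not cells were replicates. A share or CPM uses all UMIs of the sum. Differences were tested in R 4.3.3 with edgeR 4.0.16 (limma 3.58.1), using filterByExpr, TMM, the quasi-likelihood test and Benjamini-Hochberg adjustment over all rows tested, called under 0.05. Rows below the filter were not tested, which left out 4 nuclear members in each comparison except PEP against NP neurons, where it left out 5. The pipeline was tested on simulated data. Log2 folds of shares are means ± SD over 5 libraries. Intervals and the limit of 3 counts for a count of 0 cover counting error only. UMIs were counted on 3′ ends, so levels are compared mainly between types. Shares of an isoform pair or of the mitochondrial group, and ranks of members by UMIs, compare genes and are less certain.

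Both sums of a comparison come from the same library. The correlation between their deviations was 0.03 to 0.22 with glia, 0.02 to 0.16 with endothelial cells, 0.11 to 0.43 for NF and NP and 0.15 to 0.46 for PEP and NP neurons. The fit without the library as a block was the one reported.

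Members and lists were chosen with earlier results of these data known. Genes named are all mitochondrial members, in each comparison the 5 nuclear members called in each direction with the largest fold among those with the same direction in every library, the 5 with the largest ratio between neuron types among those of at least 50 CPM in 1 type, the member with the most UMIs in each complex, fixed core subunits and fixed isoform families. Genes named from the other lists, Uqcr11, Cox8b, the 13 members highest in PEP3_Trpm8 and the members with shared words were named after their values were seen. Some items are not reported here. Alternatives were DESeq2 1.42.0, total UMIs without TMM, nuclear rows only, no filter, a threshold of 0.01, the library as a block, equal weights of types, sums of at least 10 cells, cells up to 10% mitochondrial share, UMIs per cell, mean shares per cell, other member sets and leaving out each library.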

Additional observations from a re-analysis of the deposited data

Results flagged for a closer look

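In 6 of 42 tests for a library that stands apart within a type (Dixon's test for 5 libraries, critical value 0.71), 1 library was far from the other 4. Chance alone flags about 1 in 20 such tests if they are independent. These are not, since the ratio is made from both shares, and each library flagged by its ratio was also flagged by a share. In NP_Nts, library 2 had a nuclear share of 3.37%, against 3.99% to 4.16% in the others, and a ratio of mitochondrial to nuclear UMIs of 1.65, against 1.04 to 1.2. In Th, library 1 had a mitochondrial share of 5.4%, against 7.19% to 7.45%, and a ratio of 1.19, against 1.86 to 2.03. In endothelial cells, library 2 had a mitochondrial share of 3.16%, against 2.11% to 2.3%, and a ratio of 2.01, against 1.12 to 1.33.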

How the results depend on the processing

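Limits first: NF2 and endothelial cells had 3 cells each in library 1, and the scaling moved the median of all rows by over 0.1 (log2) in each pair of groups, so nuclear folds near that median have no firm direction. Of the counts and group values recomputed, 638 kept their direction and their side of the threshold or moved by less than the spread, and the others are given here, the cause not tested in any. With total UMIs without TMM, nuclear members lower in neurons than glia numbered 6 in place of 10 and those lower in NF than NP neurons 6 in place of 14, and in PEP against NP neurons 7 nuclear members were higher in place of 3, 18 lower in place of 33 and 9 mitochondrial members higher in place of 1. With each type weighted equally, 18 nuclear members were lower in neurons than glia, 7 lower in NF than NP and 8 higher in PEP than NP neurons, and the log2 folds of the nuclear share became 0.56 for neurons against glia and 0.73 for NF against NP, where the fold of the ratio became -0.05 in place of 0.2. At a threshold of 0.01, 9 nuclear members were lower in NF than NP neurons and 0 mitochondrial members higher in PEP than NP neurons, and with DESeq2 2 were. Without cells above 10% mitochondrial share, 3 mitochondrial members were higher in PEP than NP neurons, and the mitochondrial share of NF_Calb1 was 6.14% in place of 6.84%. With the replicate block for the library, which pairs both sums of an animal, 57 members were called in PEP against NP neurons in place of 37, 7 of the mitochondrial members among them, and no other count moved by over 1.5 times. As UMIs per cell, the log2 folds of the mitochondrial and nuclear groups were 1.76 and 2.5 against glia, 3.24 and 3.45 against endothelial cells, 0.6 and 0.41 for NF against NP and -0.5 and -0.82 for PEP against NP neurons. Leaving out each library in turn, the nuclear members lower in neurons than glia numbered 6 (without library 1) to 15, those lower in NF than NP neurons 12 to 15, and in PEP against NP neurons 25 to 49 members were called, with 22 to 42 nuclear members lower and 0 (without library 2 or 5) to 4 (without library 1) mitochondrial members higher. The log2 folds of the groups kept their sign in these fits except the nuclear group in PEP against NP neurons, at -0.08 to 0.00.

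Single members that turned their sign were not called under the alternative. Against endothelial cells, ND4L turned to -0.08 without TMM and with sums of at least 10 cells and to -0.02 with equal weights, ATP8 to 0.03 with the block, and with sums of at least 10 cells ND5 turned to -0.04, ND6 to -0.13 and ND2 to -0.06. With each library left out in turn the folds there were -0.2 to 0.34 for ND4L, -0.58 to 0.02 for ATP8, -0.07 to 0.65 for ND5 and -0.14 to 0.94 for ND6. In NF against NP neurons ND6 turned to -0.05 with no filter and without cells above 10%, and COX3 to -0.03 with no filter and -0.0 with equal weights, and with a library left out the ranges were -0.19 to 0.20 for ND6 and -0.04 to 0.08 for COX3. In PEP against NP neurons ATP6 turned to -0.0 with DESeq2 and without cells above 10%, -0.02 with no filter and -0.1 with equal weights, and ranged from -0.03 to 0.07 with a library left out, and COX1 turned to -0.03 with equal weights. Sums of at least 10 cells could be set only for endothelial cells and the neuron types, and nuclear rows only gives no value for mitochondrial members.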
